A study of Mus musculus with 16 samples.

Results

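The heat shock genes described here are 10 mouse genes for cytosolic and mitochondrial chaperones and their regulator, chosen by name from the 38924 genes in the deposited tables. They are the regulator Hsf1, the inducible HSP70 genes Hspa1a and Hspa1b, the constitutive HSP70 gene Hspa8, Hsph1, Dnajb1, Hsp90aa1, the small heat shock gene Hspb1, and the mitochondrial pair Hspd1 and Hspe1. All 10 passed the filter on low counts that left 18350 genes for testing. Gene counts came from mRNA sequencing of 16 libraries, each from punches of the ventral posterolateral thalamus by its label, the relay that carries touch and pain signals from the body to the cortex. There were 4 groups of 4 libraries, namely RGS4 KO with CFA (libraries 13 to 16), RGS4 KO naive (5 to 8), WT with CFA (9 to 12) and WT naive (1 to 4). The sample labels give the KO only as a genotype, and the design text describes mice with a floxed RGS4 gene that received an adeno-associated virus carrying Cre in this region, so that cells the virus did not reach would keep the gene. Whether WT mice also received a virus, and the age, strain and time after CFA, are in none of the sources used. The abbreviation CFA is left unexplained by the labels. Complete Freund's adjuvant, which inflames the tissue where it is injected, is its usual meaning in work on pain. Each library pooled 4 punches of 12 gauge from 2 mice, and the labels call all samples female while the protocol names male mice.

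Heat shock proteins are chaperones that hold, refold or hand over unfolded proteins. HSP70 proteins bind exposed stretches of a client with help from a J-domain partner such as DNAJB1, which stimulates their ATPase, and from an HSP110 protein such as HSPH1, which releases the spent nucleotide. HSP90 acts later on partly folded clients such as kinases and steroid receptors, HSPB1 holds unfolded proteins without using ATP, and HSPD1 with its lid HSPE1 forms the folding chamber of the mitochondrial matrix. The factor HSF1 is kept inactive by chaperones and, when unfolded protein draws them away, binds heat shock elements, which are inverted repeats of GAA units, to raise transcription of its targets. Hspa1a and Hspa1b are the strongly inducible members, while Hspa8, Hsp90aa1, Hspd1 and Hspe1 are made in quantity by unstressed neurons as well.

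After CFA, 4 of the 10 genes rose when both genotypes were averaged (8 libraries against 8). These were Hspa1b, 2.37-fold, Hspb1, 1.46-fold, Hspa1a, 1.42-fold, and Hsph1, 1.11-fold, and none fell. The Hspb1 call was lost in 13 of the 16 fits that leave out 1 library, and with libraries thinned to 1 depth the count was 2. Of all tested genes, 1.81% were called in that comparison and 1.08% rose. A gene is called at an adjusted p under 0.05 in edgeR's quasi-likelihood test, with Benjamini-Hochberg adjustment over the 18350 tested genes. No heat shock gene was called by edgeR between libraries labelled KO and WT libraries, whether naive (1.45% of all tested genes called), after CFA (1.6%) or on average (3.73%), nor for the interaction of genotype with CFA (0.0654%). In tissue punches, a change in RNA per cell and a change in the number of cells of a type cannot be told apart.

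The libraries held between 18.1 M and 78.8 M counts in genes (median 42.6 M), and the 10 genes together made up 0.203% to 0.24% of them. The targeted gene Rgs4 had 77.5 to 90.2 CPM (a read count divided by the TMM-scaled library size in M, median 84.3) in CFA libraries labelled KO, against 81.1 to 96.8 CPM (median 89.7) in WT CFA libraries. Naive libraries labelled KO had 78 to 84.5 CPM of Rgs4 (median 81.3), against 77.3 to 85.2 CPM (median 80.5) in WT naive libraries. Both pairs overlapped and edgeR called neither difference (fold 0.939 after CFA, adjusted p = 0.519, and 1.005 in naive libraries, adjusted p = 0.979), so the counts did not show a loss of Rgs4. The genotype is therefore called "labelled KO" throughout. All 8 relay markers of the thalamus were detected, with a summed level of 911 to 1080 CPM over the 16 libraries. Slc17a6, a vesicular transporter of relay neurons, was the highest of them at 432 to 535 CPM. Lef1 and Prkcd were the lowest, at 7.27 to 15.8 CPM and 9.82 to 18 CPM. Gad2, listed with the markers of the thalamic reticular nucleus, had 496 to 616 CPM. These levels do not show which nuclei the punches held. Markers of the oculomotor and Edinger-Westphal nuclei, which lie outside the thalamus, did not keep 1 level across groups, and their sums stand beside the counts of called members. Naive library 8, labelled KO, stood higher than the other 3 of its group for most of the 10 genes, and the calls that change without it are given.

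The promoters of the members that moved show which of them carry the letters of a heat shock element, so they are printed here from RefSeq (GRCm38.p6, 5′ to 3′ on the gene's strand, 250 bases ending just before the transcript start, elements in capitals). Hspa1a lies at chr17:34972157-34972406 (minus strand), Hspa1b at chr17:34959239-34959488 (minus strand) and Hspb1 at chr5:135887669-135887918 (plus strand).

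Hspa1a: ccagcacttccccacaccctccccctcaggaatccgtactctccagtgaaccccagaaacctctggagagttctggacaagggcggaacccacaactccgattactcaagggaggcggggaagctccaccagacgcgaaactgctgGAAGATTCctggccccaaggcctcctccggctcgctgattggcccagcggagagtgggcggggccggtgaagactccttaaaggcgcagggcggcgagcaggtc
Hspa1b: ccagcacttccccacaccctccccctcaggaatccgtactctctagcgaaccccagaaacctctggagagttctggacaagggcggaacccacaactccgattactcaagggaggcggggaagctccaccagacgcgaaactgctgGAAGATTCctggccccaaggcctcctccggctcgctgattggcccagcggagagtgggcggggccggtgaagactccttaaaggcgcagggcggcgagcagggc
Hspb1: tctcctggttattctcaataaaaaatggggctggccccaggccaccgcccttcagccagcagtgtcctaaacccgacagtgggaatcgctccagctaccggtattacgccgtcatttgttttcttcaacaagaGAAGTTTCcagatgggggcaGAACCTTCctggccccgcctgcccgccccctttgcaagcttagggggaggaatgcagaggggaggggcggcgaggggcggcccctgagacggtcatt

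The windows of Hspa1a and Hspa1b differed at 3 of 250 positions, written as the Hspa1a base, the position from 1 at the 5′ end and the Hspa1b base, C44T, T47C and T249G. Both held the same paired element, GAAGATTC, 104 to 97 bases before the start, and Hspb1 held GAAGTTTC 117 to 110 bases and GAACCTTC 97 to 90 bases before its start. Elements were searched on both strands as 2 inverted units (GAANNTTC or TTCNNGAA) and as 3 units (GAANNTTCNNGAA or TTCNNGAANNTTC), where the second kind contains the first. Of 32841 RefSeq windows of 300 bases, 250 before to 50 after the start, 15.1% held 2 units and 0.603% held 3 units.

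The 3-unit form was found near the starts of Hsph1, Hspd1 and Hspe1, shown because Hsph1 rose while the mitochondrial pair did not pass the test. Hsph1 (minus strand) held a 2-unit element at chr5:149636362-149636369 and a 3-unit element at chr5:149636288-149636300, the second just inside the transcript. Hspd1 and Hspe1 are transcribed away from each other, and the same 18 bases at chr1:55088059-55088076 lay before 1 of the 2 RefSeq starts of Hspd1 and before the start of Hspe1.

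Hsph1 upstream: TTCTCGAA
Hsph1 inside: TTCTGGAAAGTTC
Hspd1, minus strand: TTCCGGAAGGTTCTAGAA
Hspe1, plus strand: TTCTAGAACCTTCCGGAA

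Neither RefSeq window of Dnajb1 held either form, which says only that these letters are not in those windows. RefSeq windows of Hspa8, Hsp90aa1 and Hsf1 were not analysed here. A match is a description of sequence, and binding of HSF1 was not measured.

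**Figure D1:**
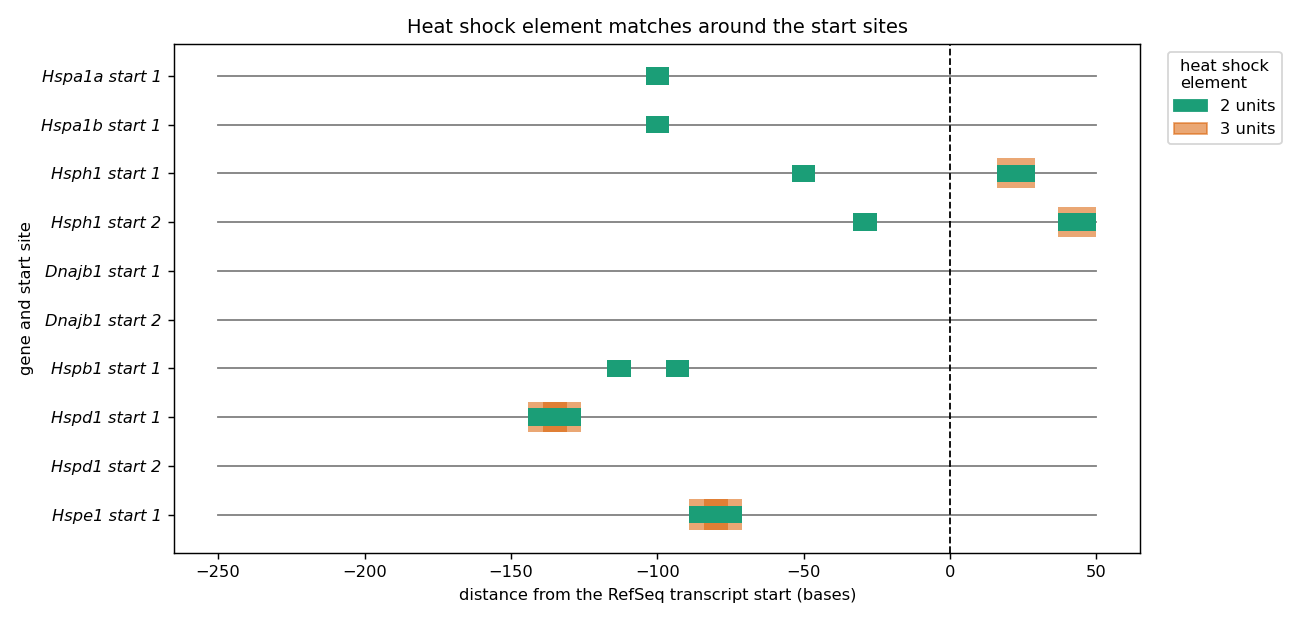
Heat shock elements in the RefSeq windows of 7 members, with the distance from the transcript start in bases on the horizontal axis and 1 line per start site. Short green bars are 2-unit and taller orange bars 3-unit elements, which appear for Hsph1, Hspd1 and Hspe1, while both Dnajb1 lines and 1 of the 2 Hspd1 lines carry none.

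Per length, the 10 genes spanned a wide range of levels, given here as mean RPKM (CPM per kilobase of exon) ± SD over all 16 libraries. Hspa8 stood highest at 210 ± 9.99 RPKM, above 99.4% of tested genes, followed by Hsp90aa1 at 164 ± 8.04 RPKM. Hspd1 (52.3 ± 1.77 RPKM) and Hsph1 (50.7 ± 3.46 RPKM) came next, and their ranges over libraries overlapped, so their order is not set. Hspe1 had 39 ± 1.94 RPKM, Dnajb1 20.2 ± 1.56 RPKM and Hsf1 6.16 ± 0.30 RPKM, each range apart from its neighbours. Hspb1 and the HSP70 pair stood lowest, with Hspb1 at 2.08 ± 0.57 RPKM, Hspa1b at 0.978 ± 0.54 RPKM and Hspa1a at 0.758 ± 0.17 RPKM, and the ranges of neighbours among these overlapped. The lowest genes also varied most over the 16 libraries, with a coefficient of variation in CPM of 55% for Hspa1b, 27.2% for Hspb1 and 23% for Hspa1a, against 3.39% to 7.72% for the other 7 and a median of 7.65% over all tested genes. Over the tested genes that averaged 50 CPM or more that median was 3.96%, and of the 6 members at that level 5 varied more and Hspd1 less.

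**Figure D2:**
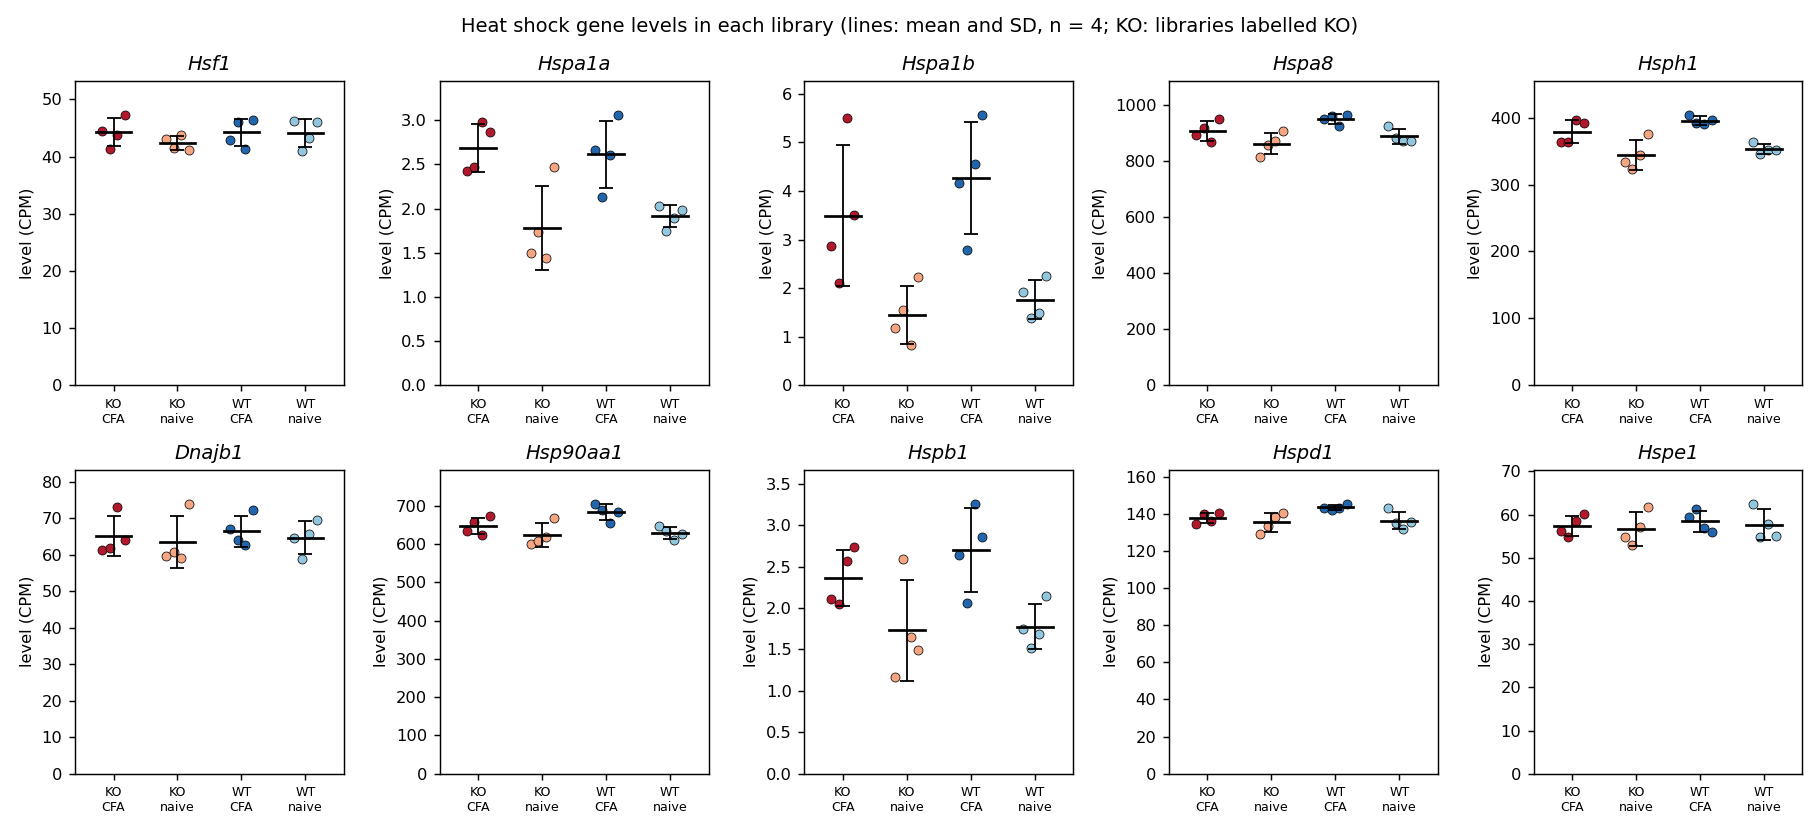
Level of each heat shock gene in CPM (vertical axes from 0), 1 point per library, with the mean and SD of 4 libraries per group. Hspa1b after CFA lies between 2.1 and 5.57 CPM in both genotypes, and 2 of the 8 naive libraries, labelled KO 8 and WT 4, exceed the lowest of these, while Hspe1 lies between 52.9 and 62.5 CPM in all 16.

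Copies of these genes limit how far single values can be trusted, because the deposited tables leave out reads that align to several places (24.1% to 26% of listed reads). Of the 50-base windows in its transcripts, Hspa1a shared 66.3% with other genes and Hspa1b 62.3%, mostly with each other. Pseudogenes and other copies put Hspb1 at 50.1%, Hsp90aa1 at 47.5%, Hspd1 at 42.1%, Hspa8 at 39.4% and Hspe1 at 22.8%, while Dnajb1 shared 0.412% and Hsph1 and Hsf1 shared none. Hspa1a (chr17:34969190-34972156) also overlaps the predicted gene Gm20481 over 2225 bases, Hspd1 (chr1:55077835-55088243) overlaps Hspe1 (chr1:55088132-55091307) over 112 bases, and Hspa8 hosts 3 small nucleolar RNA genes. Since the kit does not mark strand, reads in such stretches cannot be assigned with certainty. The remaining members lie at chr17:34956436-34959238 (Hspa1b), chr9:40800984-40810087 (Hspa8), chr5:149614287-149636376 (Hsph1), chr8:83608193-83612653 (Dnajb1), chr12:110690605-110702728 (Hsp90aa1), chr5:135887919-135889563 (Hspb1) and chr15:76477422-76501913 (Hsf1) on mm10.

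Hspa1b, the inducible HSP70 gene with the largest change, had 4.16, 2.78, 4.56 and 5.57 CPM in WT CFA libraries 9 to 12, against 1.91, 1.38, 1.49 and 2.26 CPM in WT naive libraries 1 to 4. Every WT library with CFA was above every naive one. The fitted change was 2.45-fold (95% interval 1.56 to 3.83, log2 change 1.29, SE 0.30, edgeR adjusted p = 0.0409). The libraries labelled KO had 2.86, 2.1, 5.5 and 3.51 CPM after CFA (libraries 13 to 16), against 1.17, 1.56, 0.828 and 2.23 CPM in naive libraries 5 to 8. Naive library 8 lay above CFA library 14, so the groups overlapped, and the change of 2.29-fold (1.37 to 3.80, SE 0.34 on the log2 scale) was not called by edgeR (adjusted p = 0.313), while DESeq2 called it (adjusted p = 0.00615). Without library 8 the log2 change was 1.48 and edgeR still made no call, nor did it without any other single library (lowest adjusted p = 0.209). The gene rests on few reads, 15 in the shallowest library and at most 245.

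Hspa1a, its near-identical neighbour, was also higher after CFA, with smaller fitted changes in both genotypes. Levels in WT CFA libraries were 2.66, 2.13, 2.61 and 3.06 CPM, against 2.02, 1.74, 1.89 and 1.98 CPM in WT naive libraries. The WT groups did not overlap, but the change of 1.37-fold (1.11 to 1.68) did not pass the test (edgeR adjusted p = 0.0992). Its levels in libraries labelled KO were 2.43, 2.47, 2.98 and 2.87 CPM after CFA, against 1.49, 1.73, 1.43 and 2.47 CPM in naive libraries. Naive library 8, at 2.47 CPM, stood with the CFA libraries while the other 3 naive libraries were lower, and the change of 1.48-fold (1.18 to 1.85) was not called (adjusted p = 0.217). Without library 8 it was called (log2 change 0.77, edgeR adjusted p = 0.0307).

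Because the pair shares most of its sequence, the counted reads were also summed over both genes. Reads left out for aligning to several places are in neither gene's count, so the sum and the shares below do not restore them. The summed level was 6.89 ± 1.53 CPM in WT CFA and 3.67 ± 0.51 CPM in WT naive libraries (SD, n = 4 each), a ratio of 1.88, with the smallest two-sided exact permutation p that 4 against 4 allows (p = 0.0286, 0.114 adjusted over the 4 pairs of groups). Libraries labelled KO summed to 6.18 ± 1.71 CPM after CFA and 3.23 ± 1.07 CPM in naive ones, a ratio of 1.91 (exact permutation p = 0.0571, adjusted 0.114). Without any 1 WT naive library the exact p in WT was 0.0571, and without CFA library 14 that in libraries labelled KO was 0.0286. Entered as 1 gene in the edgeR fit, the sum rose 1.88-fold in WT (1.36 to 2.61, adjusted p = 0.0462), was 1.86-fold higher in libraries labelled KO without being called (1.30 to 2.66, adjusted p = 0.258), and rose 1.87-fold over both (1.47 to 2.38, adjusted p = 0.0102). The share of Hspa1b in the sum was also higher after CFA, at 61.5% ± 3.54 in WT CFA and 47.5% ± 4.33 in WT naive libraries (exact permutation p = 0.0286, adjusted 0.114). Its share in libraries labelled KO was 55% ± 7.78 after CFA and 43.8% ± 5.09 in naive ones (exact permutation p = 0.0857, adjusted 0.171), and neither difference in share passed after adjustment.

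Hsph1, the HSP110 exchange factor, moved by far less but with little scatter. It had 405, 392, 391 and 396 CPM in WT CFA libraries, against 364, 346, 352 and 352 CPM in WT naive libraries. No WT libraries overlapped, and the gene rose 1.12-fold (1.06 to 1.19, edgeR adjusted p = 0.0356). CPM values in libraries labelled KO were 364, 364, 396 and 393 after CFA, against 333, 324, 345 and 376 in naive libraries. Again library 8 was the naive library that reached into the CFA range, and the change of 1.10-fold (1.04 to 1.17) was not called (adjusted p = 0.265). Without library 8 the call was made (log2 change 0.18, edgeR adjusted p = 0.0275).

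Hspb1, the small heat shock gene, had 2.64, 2.05, 3.26 and 2.85 CPM in WT CFA libraries, against 1.75, 1.52, 1.69 and 2.15 CPM in WT naive libraries. Library 10 with CFA lay just below naive library 4, and the 1.53-fold change (1.17 to 1.99) missed the threshold (edgeR adjusted p = 0.0862). Hspb1 in libraries labelled KO had 2.11, 2.05, 2.57 and 2.74 CPM after CFA, against 1.17, 2.59, 1.66 and 1.5 CPM in naive libraries, where library 6 stood high. The 1.40-fold change there (1.04 to 1.88) was not called (adjusted p = 0.568).

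Hsp90aa1, the inducible cytosolic HSP90 gene, had 705, 688, 655 and 684 CPM in WT CFA libraries, against 647, 633, 610 and 625 CPM in WT naive libraries. Those groups did not overlap, yet the 1.09-fold change (1.03 to 1.14) missed the threshold (edgeR adjusted p = 0.078). The level in libraries labelled KO was 647 ± 21.5 CPM after CFA and 624 ± 30.6 CPM in naive ones (SD, n = 4 each, adjusted p = 0.756). Hspa8, the constitutive HSP70 gene, had 951 ± 17.7 CPM in WT CFA and 889 ± 26.2 CPM in WT naive libraries (1.07-fold, 1.02 to 1.12, adjusted p = 0.143). Its level in libraries labelled KO was 908 ± 35.3 CPM after CFA and 863 ± 38.3 CPM in naive ones (1.05-fold, 1.001 to 1.11, adjusted p = 0.629).

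The changes of the J-domain gene Dnajb1, the mitochondrial pair and the regulator were small and not called. Dnajb1 differed by 1.03-fold in WT libraries (0.92 to 1.15) and 1.02-fold in libraries labelled KO (0.911 to 1.15). Hspd1 had 143 ± 1.48 CPM in WT CFA and 136 ± 4.77 CPM in WT naive libraries, 1.05-fold (1.01 to 1.10, edgeR adjusted p = 0.221), and in libraries labelled KO 138 ± 2.77 CPM after CFA and 135 ± 5.02 CPM in naive ones. Hspe1 differed by 1.01-fold in both genotypes, with upper bounds of 1.09. Hsf1 mRNA, which says nothing of the activity of the protein, had 44.2 ± 2.43 CPM in WT CFA and 44.1 ± 2.50 CPM in WT naive libraries, a ratio of 1.002 (0.936 to 1.07). Libraries labelled KO had an Hsf1 level of 44.2 ± 2.46 CPM after CFA and 42.4 ± 1.23 CPM in naive ones, 1.04-fold (0.972 to 1.12).

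Counted together, 2 of the 10 genes (Hspa1b and Hsph1) rose in WT libraries after CFA and none fell, where 2.23% of all tested genes were called and 1.42% rose. The members were chosen with earlier results of these data known, so counts of them are a description. All 10 fitted changes were above 0, as were those of 49.5% of all tested genes. The members' median log2 change was 0.11, beside -0.0012 over all tested genes. Levels of the 10 genes were mostly correlated over the libraries, so their signs are not independent. Of the 10, 7 had an unadjusted p under 0.05, as did 17.6% of all tested genes. The 4 CFA libraries lay wholly above the 4 naive ones for 4 genes, Hspa1a, Hspa1b, Hsph1 and Hsp90aa1, as they did for 6.13% of all tested genes. The summed markers of the oculomotor and Edinger-Westphal nuclei were 251 to 345 CPM in the same WT CFA libraries and 19.8 to 59.6 CPM in the WT naive ones, and their part in these changes was not tested. The WT count depended on single libraries. Leaving out any 1 WT library except CFA library 10 ended the Hspa1b call (edgeR adjusted p 0.0534 to 0.129), as did leaving out labelled KO library 6, 13 or 16 (0.0528 to 0.058), and any 1 WT library except naive library 1 ended the Hsph1 call (0.0659 to 0.1). The count went to 0 without naive library 2, 3 or 4 or CFA library 9, 11 or 12, to 1 without naive library 1, CFA library 10 or labelled KO CFA library 13 or 16, and to 4 without labelled KO naive library 8, where Hspa1a (0.0373) and Hsp90aa1 (0.026) joined. DESeq2 called 4 of the 10 in WT libraries, and 762 of the 18350 tested genes, where edgeR called 409.

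Of the 10 genes, 0 were called by edgeR after CFA in libraries labelled KO, where 0.185% of all tested genes were. There too all 10 fitted changes were above 0, as were those of 48.8% of all tested genes (median log2 change 0.07 beside -0.0021). Of the 10, 5 had an unadjusted p under 0.05, as did 7.81% of all tested genes. DESeq2 called 1 of the 10, and 91 of the 18350 tested genes. For none of the 10 were the CFA and naive libraries wholly apart, as they were for 4.29% of all tested genes. The count rose to 2, Hspa1a and Hsph1, without naive library 8, in which 7 of the 10 genes were above their mean over all 16 libraries, against 0, 1 and 2 genes in naive libraries 5, 6 and 7. The summed oculomotor and Edinger-Westphal markers were 59.1 to 186 CPM after CFA (median 107) and 35.6 to 249 CPM in naive libraries labelled KO (median 108). The WT and labelled KO comparisons use separate libraries, which also differed in depth. Naive libraries labelled KO held a median of 26.2 M counts (18.1 to 43.7 M), and CFA libraries labelled KO 40.9 M (24.4 to 78.8 M). Medians were 40.2 M in WT naive (36.4 to 54.7 M) and 48 M in WT CFA libraries (42.2 to 53.9 M).

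Averaged over both genotypes, 4 of the 10 genes rose and none fell, where 1.81% of all tested genes were called and 1.08% rose. Hspa1b rose 2.37-fold (1.69 to 3.32, edgeR adjusted p = 0.0122), Hspa1a 1.42-fold (1.22 to 1.66, adjusted p = 0.0135), Hsph1 1.11-fold (1.07 to 1.16, adjusted p = 0.00576) and Hspb1 1.46-fold (1.20 to 1.78, adjusted p = 0.0467). Hspa8 (1.06-fold, adjusted p = 0.0801) and Hsp90aa1 (1.06-fold, adjusted p = 0.0818) missed the threshold, while DESeq2 called them (adjusted p = 0.0266 and 0.0288) beside the other 4. In this comparison DESeq2 called 573 of the 18350 tested genes. Hspa1a, Hspa1b and Hsph1 were called whichever library was left out, while the Hspb1 call was lost in 13 of 16 such fits (adjusted p 0.0578 to 0.103), all but those without WT naive library 4, labelled KO naive library 6 or WT CFA library 10. Without labelled KO naive library 8, Hspa8 (0.0257) and Hsp90aa1 (0.0117) were called as well. With all libraries thinned to the depth of the shallowest, Hspa1a (adjusted p = 0.0597) and Hspb1 (0.266) were no longer called.

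**Figure D3:**
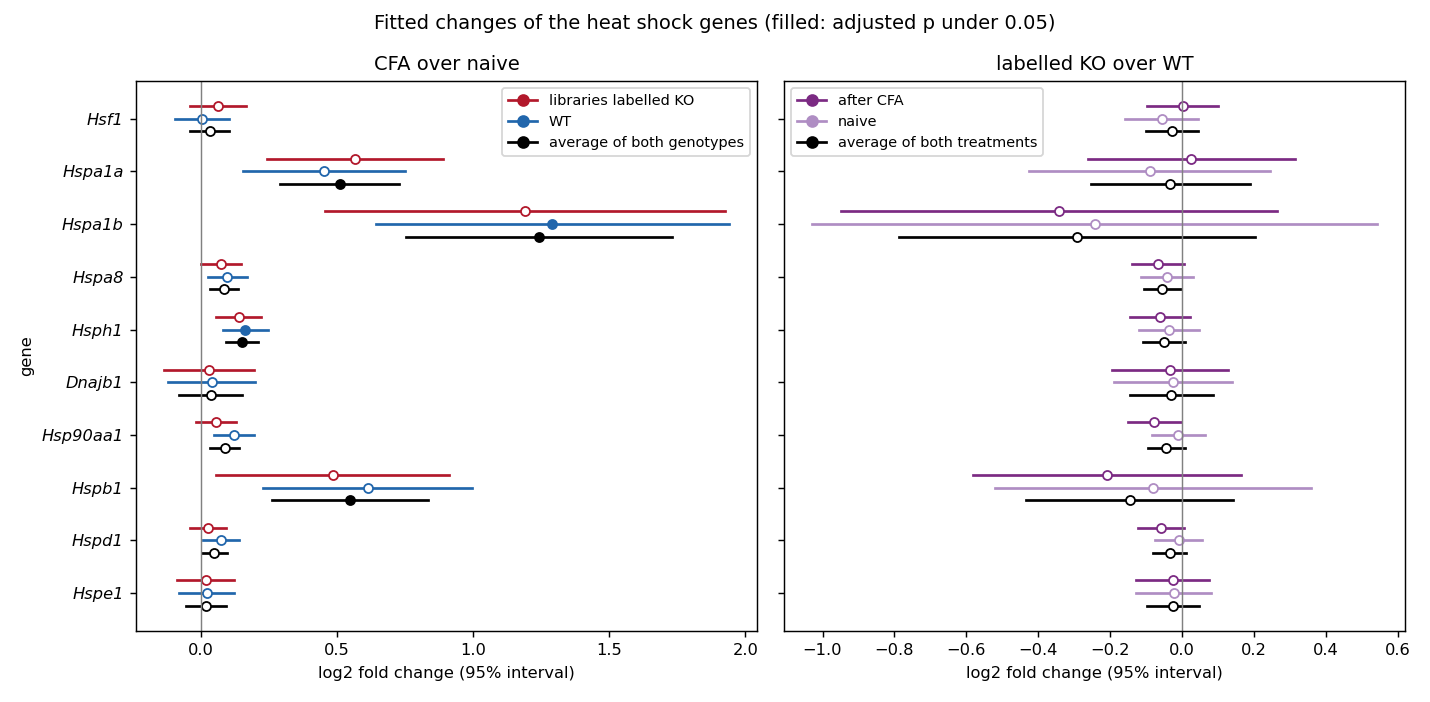
Fitted log2 fold changes of the 10 genes with 95% intervals, CFA over naive on the left and labelled KO over WT on the right, with filled points at an adjusted p under 0.05. The filled points are Hspa1b and Hsph1 in WT and Hspa1a, Hspa1b, Hsph1 and Hspb1 in the average, all for CFA, and none is filled for genotype.

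No member was called by edgeR between genotypes, which does not show that they were equal. In naive libraries 0 of the 10 were called, where 1.45% of all tested genes were, and all 10 fitted changes, labelled KO over WT, lay below 0 (median log2 change -0.041 beside 0.00019 over all tested genes). Of all tested genes, 50.1% had a fitted change above 0. The members' levels were mostly correlated over the libraries, so their signs are not independent. No member had an unadjusted p under 0.05 there by edgeR, and DESeq2 called 0 (459 of all tested genes). The intervals were narrow for the abundant genes, such as 0.923 to 1.02 for the fold of Hspa8 and 0.943 to 1.04 for Hsp90aa1, and wide for Hspa1b (fold 0.844, 0.49 to 1.45). The folds of the others in naive libraries were 0.939 for Hspa1a, 0.945 for Hspb1, 0.961 for Hsf1, 0.974 for Hsph1, 0.982 for Dnajb1, 0.984 for Hspe1 and 0.993 for Hspd1.

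After CFA 0 of the 10 were called between libraries labelled KO and WT, where 1.6% of all tested genes were, and 8 fitted changes lay below 0. Of all tested genes, 49.6% had a fitted change above 0. Hspa1b had a fold of 0.788 (0.518 to 1.20) and Hspb1 of 0.864 (0.668 to 1.12), Hspa1a and Hsf1 lay just above 0 on the log2 scale (0.025 and 0.00068), and Hspa8, Hsph1, Dnajb1 and Hspe1 had folds of 0.955, 0.958, 0.976 and 0.981. Hsp90aa1 had the 1 unadjusted p under 0.05 in that comparison (fold 0.948, edgeR adjusted p = 0.369). Hspd1 had 135, 140, 136 and 140 CPM in CFA libraries labelled KO, against 143, 142, 143 and 146 CPM in WT CFA libraries. It was the 1 member whose libraries were wholly lower in libraries labelled KO, as were those of 4.25% of all tested genes (fold 0.96, 0.918 to 1.004, adjusted p = 0.468). Averaged over both treatments 0 of the 10 were called, where 3.73% of all tested genes were, and all 10 fitted changes lay below 0, with folds between 0.816 for Hspa1b (0.579 to 1.15) and 0.983 for Hspe1. Of all tested genes, 49.5% had a fitted change above 0 in that average. Hspa8 had the 1 unadjusted p under 0.05 (fold 0.962, edgeR adjusted p = 0.291). DESeq2 called 0 members after CFA (465 of all tested genes) and 0 in the average (803 of all tested genes).

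The effect of CFA did not differ detectably between genotypes for any of the 10 genes, where 0.0654% of all tested genes were called for the interaction. No member had an unadjusted p under 0.05 for it, and DESeq2 called 0 (87 of all tested genes). The interval was too wide to speak of equal responses for Hspa1b, whose fold after CFA in libraries labelled KO over that in WT was 0.934 (0.468 to 1.86). It was tighter for Hsph1 at 0.984 (0.907 to 1.07) and for Hspa8 at 0.984 (0.917 to 1.06). The other 7 lay between 0.914 for Hspb1 and 1.083 for Hspa1a.

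**Figure D4:**
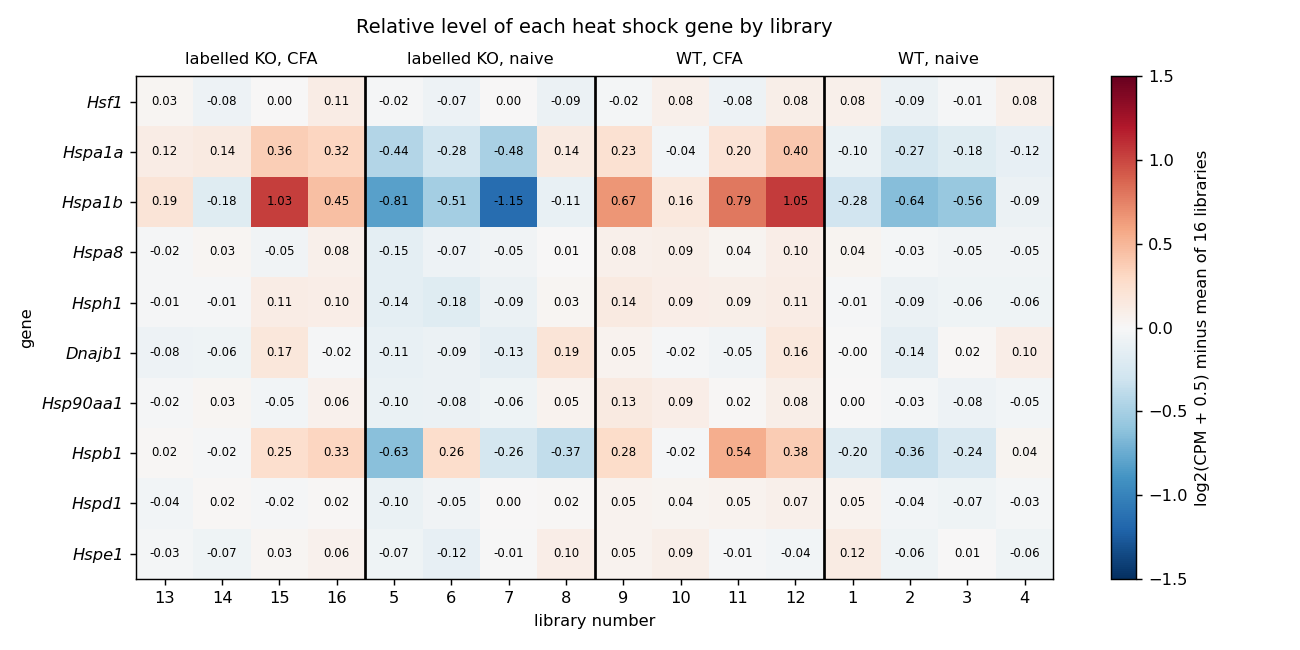
Level of each gene in each library as log2(CPM + 0.5) minus the mean over 16 libraries, with libraries in columns by group and genes in rows. Hspa1b is above its mean in 7 of the 8 CFA libraries and below it in all 8 naive ones, and library 8 is warmer than naive libraries 5 to 7 for most genes.

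Across the 16 libraries, 44 of the 45 pairs of members had a positive Pearson correlation of log2(CPM + 0.5), with a median of 0.55 and a range from -0.03 to 0.93, and 27 were above 0.5. After group means were removed the median was 0.35 (-0.25 to 0.87), and 15 were above 0.5. All pairs share the same libraries and their scaling, so these values are a description. Hspa1a with Hspa1b, which share sequence, and Hspa8 with Hsp90aa1 both had a correlation of 0.93.

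The 3 genes most like each member in pattern were taken from tested genes whose mean level reached 1 CPM, by Pearson r over the 16 libraries. Hsph1 was closest to Chordc1, an HSP90 cochaperone (r = 0.94, Spearman rho = 0.91, and 0.93 without the 2 libraries farthest from the median), followed by Rngtt (r = 0.93) and Stip1 (r = 0.91). Hsp90aa1 was closest to Stip1, the adaptor that passes clients from HSP70 to HSP90 (r = 0.93, rho = 0.94), then Eaf1 (r = 0.91) and Hnrnpc (r = 0.90). For Hspa8 they were Hsp90ab1, the constitutive HSP90 gene (r = 0.90, rho = 0.84), the CCT subunit gene Cct7 (r = 0.90) and Stip1 (r = 0.90). Those for Hspd1 were Npepps (r = 0.88, rho = 0.87), Eaf1 (r = 0.88) and the HSP70 relative Hspa4 (r = 0.88). For the sum of Hspa1a and Hspa1b they were Sdf2l1 (r = 0.89, rho = 0.91) and Pdia4 (r = 0.88, rho = 0.87), which act on proteins in the endoplasmic reticulum, and Pdcd6ip (r = 0.87, rho = 0.90). With group means removed, r with the sum was 0.64 for Sdf2l1, 0.59 for Pdia4 and 0.60 for Pdcd6ip. Hsf1 was closest to Ywhag (r = 0.85), Atxn2l (r = 0.83) and Arrb2 (r = 0.83), and Dnajb1 to Lin52 (r = 0.86), Amz2 (r = 0.81) and Ciao2a (r = 0.81). The closest to Hspb1 were Rab39 (r = 0.82), Castor2 (r = 0.81) and Kansl3 (r = 0.80), and to Hspe1 Nosip (r = 0.89), Coprs (r = 0.82) and Ppp1r11 (r = 0.82). Over all the genes named in this way, r without the 2 farthest libraries ran from 0.69 (Kansl3) to 0.95 (Pdia4). With group means removed it ran from 0.59 (Pdia4) to 0.92 (Ywhag). All were picked as the highest r among many genes, so these values are a description.

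Beyond the 10 members, 85 other heat shock and chaperone genes were listed, of which 80 were tested. These lists were chosen with earlier results of these data known, so the counts are a description. In WT libraries after CFA 7 of the 80 rose and none fell, 8.75% beside the 2.23% of all tested genes called and the 1.42% that rose. There 20 of the 80 had an unadjusted p under 0.05, as did 17.6% of all tested genes. In libraries labelled KO edgeR called 0, as it did 0.185% of all tested genes. Of the 80, 8 had an unadjusted p under 0.05 there, as did 7.81% of all tested genes. DESeq2 called 1 of them, Fkbp5, and 91 of all tested genes. The median log2 change of the 80 was 0.03 in WT libraries and 0.01 in libraries labelled KO. Without 1 library the WT count was 2 to 7, lowest without WT naive library 2, and 4 without WT naive library 3 or WT CFA library 11. Averaged over genotypes, 4 rose (Dnajc3, Stip1, Fkbp5 and Chordc1) and none fell, 5% beside the 1.81% of all tested genes called and the 1.08% that rose. That count was 9 without labelled KO naive library 8, and DESeq2 called 7 (573 of all tested genes). For the interaction 0 of the 80 were called by edgeR or DESeq2, and 8 had an unadjusted p under 0.05, where 9.86% of all tested genes did. The Stip1 and Dnajc3 calls in WT libraries held whichever library was left out. That of Chordc1 was lost without WT naive library 2 (edgeR adjusted p = 0.056), that of Fkbp5 without WT naive library 1, 2 or 4 or WT CFA library 12 (0.0582 to 0.0795) and in a fit on the 2 groups alone (0.103), that of St13 without WT naive library 2 or 3 or WT CFA library 11 (0.0514 to 0.0639), and that of Hspa12a without WT naive library 2 or 3 or WT CFA library 10 or 11 (0.0606 to 0.0824). The Hspa4l call was lost in 8 of 16 such fits, without any WT naive library, WT CFA library 10, 11 or 12 or labelled KO CFA library 16 (0.0541 to 0.122).

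Among HSP90 and its cochaperones, 3 of 13 rose in WT libraries. Stip1 had 278 ± 3.47 CPM in WT CFA and 244 ± 8.70 CPM in WT naive libraries (1.14-fold, edgeR adjusted p = 0.0105), and 264 ± 7.46 CPM after CFA and 244 ± 13.3 CPM in naive libraries labelled KO (adjusted p = 0.336). Chordc1 had 110 ± 2.88 CPM in WT CFA and 91.6 ± 3.41 CPM in WT naive libraries (1.20-fold, adjusted p = 0.0144). Chordc1 in libraries labelled KO had 98.3 ± 6.88 CPM after CFA and 90.8 ± 8.35 CPM in naive ones (adjusted p = 0.674). Fkbp5, an HSP90 cochaperone of steroid receptors that glucocorticoids induce, had 37.9 ± 6.60 CPM in WT CFA and 26 ± 3.23 CPM in WT naive libraries (1.45-fold, adjusted p = 0.0236). Fkbp5 had 36.2 ± 1.82 CPM after CFA and 25.8 ± 1.98 CPM in naive libraries labelled KO, which did not overlap although the call was not made (log2 change 0.49, adjusted p = 0.171).

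HSP70 relatives and exchange factors gave 3 rises among 15 tested in WT libraries. Hspa4l, an HSP110 relative, had 504 ± 15.1 CPM in WT CFA and 454 ± 5.23 CPM in WT naive libraries (adjusted p = 0.0404). Hspa12a, a distant HSP70 relative, had 252 ± 7.92 CPM in WT CFA and 221 ± 9.79 CPM in WT naive libraries (adjusted p = 0.0196). St13, which steadies HSP70 with its client, had 244 ± 3.80 CPM in WT CFA and 218 ± 6.58 CPM in WT naive libraries (adjusted p = 0.017). In libraries labelled KO the fitted log2 changes of these 3 were 0.02, -0.03 and 0.01. Their levels in naive libraries labelled KO were 478 ± 33.8, 244 ± 12.1 and 227 ± 12.4 CPM. After CFA the levels in libraries labelled KO were 483 ± 10.2, 239 ± 12.1 and 229 ± 6.94 CPM. For the interaction, 4 of the 15 had an unadjusted p under 0.05 by edgeR, as did 9.86% of all tested genes, and 0 were called. Dnajc3, a J-domain protein of the endoplasmic reticulum, was the 1 of 15 J-domain cochaperones that rose in WT libraries, with 103 ± 3.22 CPM in WT CFA and 87.4 ± 4.04 CPM in WT naive libraries (1.18-fold, adjusted p = 0.0109). Dnajc3 in libraries labelled KO had 104 ± 8.50 CPM after CFA and 92.5 ± 3.09 CPM in naive ones (adjusted p = 0.313).

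Of the 13 tested mitochondrial chaperones and proteases, 0 were called for CFA in either genotype by edgeR or DESeq2, with 1 unadjusted p under 0.05 in WT libraries and 0 in libraries labelled KO. Hspa9, the mitochondrial HSP70, had a log2 change of 0.05 in WT libraries and -0.03 in libraries labelled KO. All 8 CCT chaperonin subunits had fitted changes above 0 in both genotypes and edgeR called 0, with medians of 0.04 in WT libraries and 0.02 in libraries labelled KO. Of all tested genes, 49.5% in WT libraries and 48.8% in libraries labelled KO had changes above 0. DESeq2 called Cct7 in WT libraries, and 1 subunit had an unadjusted p under 0.05 there and 0 in libraries labelled KO. Of 5 tested small heat shock genes and of 7 heat shock factors and regulators, 0 were called by edgeR or DESeq2 for CFA, with 1 unadjusted p under 0.05 in each list in WT libraries. Of 12 other HSF1 target genes, 3 rose in WT libraries (Hspa4l, Chordc1 and Stip1, which other lists hold too), with a median log2 change of 0.13 in WT libraries and 0.03 in libraries labelled KO. Between genotypes, 1 of the 80 was called in naive libraries (1.25%, beside 1.45% of all tested genes) and 2 in the average of both treatments (2.5%, beside 3.73%), shares below those of all tested genes. Bag2, an HSP70 exchange factor, was lower in naive libraries labelled KO, at 11.7 ± 1.02 CPM against 14 ± 0.48 CPM in WT naive libraries (edgeR adjusted p = 0.0353), and in the average of both treatments (adjusted p = 0.0196). The naive call was lost without any 1 WT naive library or labelled KO naive library 6 or 8 (0.0557 to 0.124), in a fit on the 2 groups alone (0.113) and after thinning, and the average call was lost after thinning (0.0804). The J-domain gene Dnajb4 was lower in the average, with a log2 change of -0.16 (adjusted p = 0.00534).

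**Figure D5:**
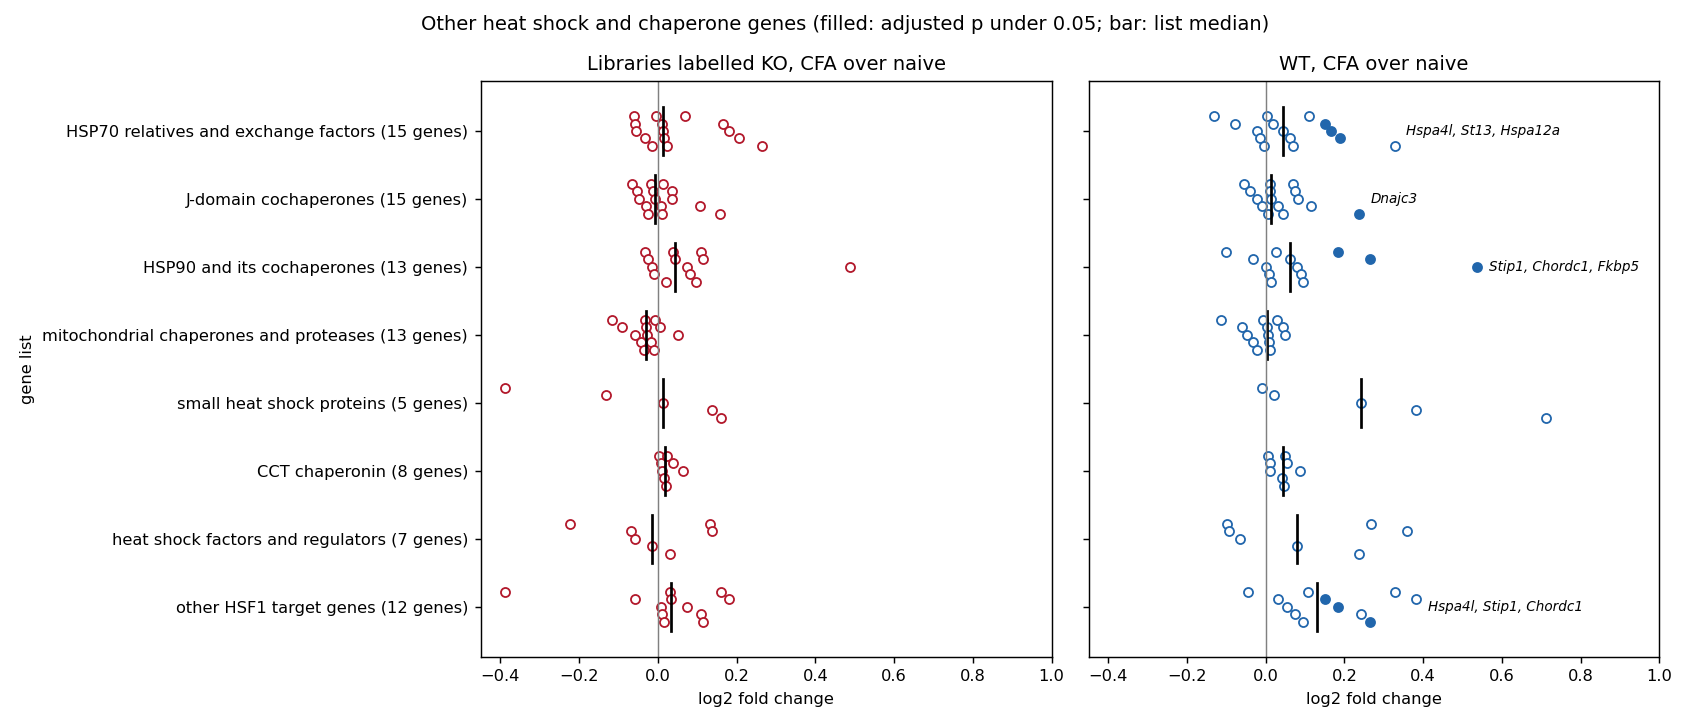
Fitted log2 fold change of other heat shock and chaperone genes after CFA, in libraries labelled KO (left) and in WT (right), 1 point per gene and 1 row per list, with the list median as a bar. Filled and named points passed an adjusted p of 0.05, 7 genes in WT and 0 in libraries labelled KO, and 3 of them stand in 2 lists.

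Levels of other marker lists are set beside the CFA results. Outside the oculomotor and Edinger-Westphal, hypothalamus and thalamic relay lists, edgeR called no marker for CFA in either genotype or in the average. DESeq2 called Syt1 (neuron) lower in WT libraries and P2ry12 (microglia) lower in the average. All 5 tested markers of the oculomotor and Edinger-Westphal nuclei were detected and none was at 0 in all libraries, and of these Cartpt and Ucn rose in WT libraries. The 5 oligodendrocyte markers summed to 7708 to 8715 CPM in WT CFA and 5962 to 7761 CPM in WT naive libraries, and to 6377 to 8598 CPM after CFA and 6304 to 10227 CPM in naive libraries labelled KO. The summed markers of the thalamic reticular nucleus were 684 to 739 CPM in WT CFA and 619 to 666 CPM in WT naive libraries, and 610 to 705 CPM after CFA and 625 to 773 CPM in naive libraries labelled KO. Gad2 alone had 496 to 616 CPM over the 16 libraries. The markers of the hypothalamus summed to 4.3 to 5.55 CPM in WT CFA and 2.76 to 3.5 CPM in WT naive libraries, and to 3.19 to 3.54 CPM after CFA and 3.06 to 3.75 CPM in naive libraries labelled KO. That sum was mostly Sim1, with a mean of 3.81 CPM in WT CFA and 2.11 CPM in WT naive libraries. Hcrt, Pmch and Agrp each stayed at or below 0.87 CPM in every library. Of single markers, Sim1, part of that sum, and Ntng1 (thalamic relay) rose in WT libraries, and Prkcd and Plekhg1 (thalamic relay) rose in the average. The relay list as a whole was mixed. Of its 8 markers, 5 had fitted changes above 0 in WT libraries (median log2 change 0.10) and 4 in the average (median 0.0053). The part of these differences in the changes of the heat shock genes was not tested.

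Genes that respond to neuronal activity and to glucocorticoids were set beside the members as well. Of 12 immediate early genes, 4 fell in WT libraries after CFA (Fos, Junb, Egr1 and Egr4) and none rose, where 2.23% of all tested genes were called. The list summed to 115 to 137 CPM in WT CFA and 140 to 199 CPM in WT naive libraries. In libraries labelled KO that sum was 118 to 142 CPM after CFA and 129 to 182 CPM in naive ones, with 0 called by edgeR or DESeq2 and 2 at an unadjusted p under 0.05 (7.81% of all tested genes). The list was also lower in naive libraries labelled KO than in WT naive ones. Its median log2 change was -0.36 there, beside -0.35 for CFA in WT libraries. Between those naive groups 1 of the 12 fitted changes was above 0. By edgeR 7 had an unadjusted p under 0.05, as did 13.8% of all tested genes, and 0 were called. Of 10 glucocorticoid-responsive genes, 2 rose in WT libraries (Fkbp5 and Cdkn1a) and 1 fell (Per1), where 2.23% of all tested genes were called. In the average 3 rose (Fkbp5, Cdkn1a and Angptl4), beside 1.81% called. In libraries labelled KO edgeR called 0 for CFA (0.185% of all tested genes), while DESeq2 called Cdkn1a and Fkbp5. The list also differed by genotype. Mt1, Pdk4 and Angptl4 were lower in libraries labelled KO on average, where 3.73% of all tested genes were called. In naive libraries 6 of the 10 had an unadjusted p under 0.05 by edgeR (13.8% of all tested genes). Cdkn1a, a cell cycle inhibitor, had 18.4 ± 6.30 CPM in WT CFA and 9.17 ± 1.08 CPM in WT naive libraries, and 16.2 ± 2.23 CPM after CFA and 8.09 ± 1.74 CPM in naive libraries labelled KO. How far these lists bear on the heat shock genes was not tested.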

How the data were processed

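The values deposited for the 16 libraries are read counts per Ensembl gene, whole numbers with no normalization by the authors. TopHat, DESeq2 and the mm10 build are named, without versions, per the submitters' processing notes. The form of the 5 summary lines that end each table is that of HTSeq. Those lines (38% to 39.9% of listed reads, 24.1% to 26% not uniquely aligned) stayed out of library sizes and tests. The sources used here give no read length, annotation release or strand setting, and the TruSeq RNA kit, version 2, does not mark strand.

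Symbols and positions came from GENCODE on mm10 and matched 37607 of 38924 IDs. Tests on the counts used edgeR 4.0.16 with R 4.3.3 (filterByExpr at a minimum count of 10, TMM scaling, robust quasi-likelihood fit, 1 mean per group over all 16 libraries, 7 contrasts). CPM use TMM-scaled totals and RPKM the exon length of all isoforms joined. Genes are called at an adjusted p under 0.05 unless stated, with two-sided tests, and DESeq2 1.42.0 was the other tool. The scripts were tested on simulated counts. Replicate pairs differed by more than sampling noise (chi-square per degree of freedom 3.55 to 13.7). The highest values, 13.7 and 12.6, were those of labelled KO naive library 8 with libraries 5 and 7, beside 6.86 with library 6. All libraries were kept, each a pool of 2 mice. Sampling noise in 18.1 M to 78.8 M counts limits the genes near 2 CPM most.

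The rule for named genes took the 10 members, with the called genes of other chaperone lists (at most 4 per list and comparison), Rgs4, and the 3 genes closest to each member in pattern. Other genes named were chosen after their values were seen. The members and lists were chosen with earlier results of these data known. Hspa14 and Slc18a3 were listed but not analysed here. Alternatives were RLE size factors, other filters, DESeq2, fits on 2 groups, thinning and leaving out each library.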

Additional observations from a re-analysis of the deposited data

Results flagged for a closer look

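Dnajb1 in the naive library 8 labelled KO stood far from the other 3 libraries of its group, at 74 CPM, where the nearest of them had 60.6 CPM. The gap made up 0.898 of the range of the group. Of 44 groups of 4 libraries examined in this way, over the 10 genes and the sum of Hspa1a and Hspa1b, 1 was flagged, and chance flags about 1 in 20.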

How the results depend on the processing

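No paired analysis was possible because library numbers differ in all groups. Members called in WT libraries after CFA numbered 2, against 1 without a low-count filter, 4 with DESeq2, 4 in a fit on the 2 groups alone, 1 with libraries thinned to the shallowest depth, and 0 to 4 when 1 library was left out. In libraries labelled KO the count of 0 became 1 with DESeq2 and 0 to 2 with 1 library left out, and in the average for CFA the count of 4 became 2 after thinning, 3 with Hspa1a and Hspa1b summed, 6 with DESeq2 and 3 to 5 with 1 library left out. The summed Hspa1a and Hspa1b ratio ranged from 1.72 to 2.06 in WT libraries and from 1.68 to 2.26 in libraries labelled KO with 1 library left out (exact permutation p 0.0286 to 0.0571 and 0.0286 to 0.0857). Other chaperone genes called for CFA in the average numbered 4, against 7 with DESeq2. Over all tested genes DESeq2 called 762 in WT for CFA (edgeR 409), 91 in libraries labelled KO (34), 573 in the average (332), 459 between naive genotypes (266), 465 between genotypes after CFA (294) and 87 for the interaction (12). After thinning edgeR called 232 in WT for CFA, 203 in the average for CFA, 176 between naive genotypes, 444 between genotypes on average (685 before thinning) and 7 for the interaction, and without a low-count filter 31 for the interaction.

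Log2 changes that turned sign belonged to genes not called in that comparison. After thinning they were Hspa1a (-0.00285) in libraries labelled KO over WT after CFA, Hsf1 (-0.0377) and Hspe1 (-0.0129) for CFA in WT, Hsf1 for CFA on average (-0.00238), and Hspa1b (0.17) and Hspe1 (0.027) for the interaction. Without a low-count filter, Hsf1 after CFA in libraries labelled KO over WT was -0.0021. With 1 library left out the ranges were as follows. In naive libraries labelled KO over WT they were -0.30 to 0.019 for Hspa1a, -0.11 to 0.013 for Dnajb1, -0.047 to 0.0078 for Hsp90aa1, -0.34 to 0.11 for Hspb1, -0.029 to 0.014 for Hspd1 and -0.069 to 0.018 for Hspe1. After CFA they were -0.032 to 0.033 for Hsf1, -0.065 to 0.11 for Hspa1a and -0.090 to 0.0077 for Dnajb1, and in the average of treatments -0.14 to 0.022 for Hspa1a. For CFA in WT they were -0.030 to 0.034 for Hsf1, -0.0036 to 0.077 for Dnajb1 and -0.0037 to 0.062 for Hspe1, and in libraries labelled KO -0.025 to 0.11 for Dnajb1 and -0.014 to 0.063 for Hspe1. For the interaction they were -0.35 to 0.18 for Hspa1b, -0.052 to 0.0017 for Hspa8, -0.053 to 0.022 for Hsph1, -0.064 to 0.075 for Dnajb1, -0.32 to 0.13 for Hspb1 and -0.045 to 0.042 for Hspe1. The cause of these changes was not tested, and low counts limit Hspa1a, Hspa1b and Hspb1 most.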
